A study of Mus musculus with 9 samples.

Results

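Small RNA sequencing (sRNA-seq) of mouse Meis1/Hoxa9 preleukemic cells listed 817 mature miRNAs, and 9 of them with high miRBase numbers are described here: mmu-miR-704, mmu-miR-1198-5p, mmu-miR-1934-3p, mmu-miR-1947-5p, mmu-miR-1964-3p, mmu-miR-1981-5p, mmu-miR-1981-3p, mmu-miR-1983 and mmu-miR-3473b, written below without the mouse prefix. They were chosen by name, and the table lists 433 other miRNAs numbered 700 or above. The cells are c-Kit-enriched mouse fetal liver cells that carry retroviral Meis1 and Hoxa9, a pair of genes that together transform blood progenitors, and all libraries share this transduction and a culture with stem cell factor, IL-6 and IL-3. The 4 Tut4/7 cKO libraries came from cells with floxed Tut4 and Tut7 alleles and Vav-iCre, a Cre driven by a blood-lineage promoter. The 5 Tut4/7 CTL libraries, called WT in the labels, came from littermates with the same floxed alleles and without iCre. Tut4 and Tut7 mRNA were not analysed here, so the deletion is taken from the labels. The sources used here do not say which embryo or culture gave each library, so P values measure the spread between these libraries.

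miRNAs are short RNAs, cut from a hairpin by Drosha and Dicer, that guide Argonaute to matching mRNAs through their seed, bases 2 to 8. The 5p and 3p arms of a hairpin can both give a mature miRNA. miRBase numbers follow the order of discovery, so a high number marks a miRNA described late, often by deep sequencing and often of low abundance. A mirtron is a hairpin whose ends are those of a spliced intron, so that splicing takes the place of Drosha. TUT4 and TUT7 are enzymes that add uridines to RNA 3′ ends, which appear as added Ts in the reads. Whether the 9 miRNAs are limited to rodents was not tested.

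The mature sequences, from the RefSeq miRNA table for GRCm38.p6, are given 5′ to 3′ with the seed in capitals, because the 3′ end decides which added Ts can be told from the genome.
miR-704: aGACAUGUgcucugcuccuag
miR-1198-5p: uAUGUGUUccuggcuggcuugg
miR-1934-3p: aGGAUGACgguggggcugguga
miR-1947-5p: aGGACGAGcuagcugagugcug
miR-1964-3p: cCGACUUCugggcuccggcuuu
miR-1981-5p: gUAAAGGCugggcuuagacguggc
miR-1981-3p: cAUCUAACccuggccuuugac
miR-1983: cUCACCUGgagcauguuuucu
miR-3473b: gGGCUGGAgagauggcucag

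The 9 sequences have 9 different seeds, and 8 of these occur in no other listed miRNA with a RefSeq sequence. The exception was miR-3473b, whose seed is also that of miR-3473e. Lengths ran from 20 nt for miR-3473b to 24 nt for miR-1981-5p, and the G and C content from 47.6% in miR-1983 to 65.0% in miR-3473b. Most ended in G, C or A, whereas miR-1964-3p and miR-1983 ended in U. On those, a U added to a read that stops 1 base short gives the annotated end, so it cannot be counted as an addition.

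Positions were read from GRCm39 with GENCODE genes. Most of the miRNAs lay in other genes. miR-704 lay on chromosome 6 from 47780524 to 47780544, in an intron of Pdia4, a disulfide isomerase of the endoplasmic reticulum. miR-1198-5p lay on chromosome X from 7673381 to 7673402, in Gripap1, where 3 transcripts have it in an exon and the others in an intron. miR-1947-5p lay on chromosome 16 from 32925745 to 32925766, in an intron of Lmln, which encodes a metallopeptidase. miR-1964-3p lay on chromosome 7 from 29472769 to 29472790, in an intron of Zfp84, a zinc finger gene. miR-1934-3p lay on chromosome 11 from 69553918 to 69553939, in an exon of the lncRNA Gm73992.

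The remaining loci set 3 miRNAs apart. The miR-1981 hairpin, on chromosome 1, spanned an 82-base intron of Mtarc2 exactly, with 0 bases between the hairpin and either intron edge, which is the arrangement of a mirtron. In 1 other Mtarc2 transcript the same bases are exonic, in the UTR. Its 5p arm covered 184554662 to 184554685 and its 3p arm 184554606 to 184554626. miR-1983 lay on chromosome 13 from 22081100 to 22081120, and 13 of its 21 bases overlapped a RefSeq tRNA gene, n-TItat14. miR-3473b had 25169 exact copies in the genome, 16 of them at annotated miRNA genes, so its locus is undefined. Of its 239 reads, 198 (82.8%) also fit miR-3473a or miR-3473e, against 0 reads for each of the other 8.

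Where the genome itself has a T next to the mature 3′ end, its transcript can give the same read as an added T. This was the case at the miR-1983 locus and at the annotated miR-1198-5p locus, where a single T follows. For these, 1 added T cannot be told from the genome, but 2 can. No T follows miR-704, miR-1934-3p, miR-1947-5p, miR-1964-3p or either arm of miR-1981, each with 1 genomic copy. For miR-3473b, 11023 of the genomic copies are followed by a T and 161 by 2 Ts.

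Libraries held 209702 to 316620 miRNA reads in Tut4/7 CTL and 175462 to 479342 in Tut4/7 cKO. The 9 miRNAs took 1.03% to 3.90% of these in Tut4/7 CTL and 2.07% to 4.29% in Tut4/7 cKO. The blood miRNA miR-223-3p stood at 2757 to 12222 RPM (reads of the miRNA relative to all miRNA reads) in Tut4/7 CTL and 972 to 10512 RPM in Tut4/7 cKO. The blood miRNA miR-155-5p stood at 805 to 5271 and 1288 to 7283 RPM. Other blood miRNAs were low, with miR-142a-3p at 65.8 to 165 and 33.4 to 131 RPM and miR-142a-5p at 19 reads in all. The hepatocyte miRNA miR-122-5p stood at 529 to 1346 and 581 to 1425 RPM, the endothelial miR-126a-3p at 68.4 to 227 RPM over the 9 libraries, and the erythroid miR-451a had 5 reads in all, while miR-144-3p, miR-133a-3p and miR-124-3p were not listed. The part of other cell types in the values below was not tested. The library labelled Tut4/7 CTL replicate 2 stood apart. Outside the 9 miRNAs and miR-92a-3p, whose mature sequence is followed by a genomic T, 4.93% of its reads were uridylated, against 7.97% to 9.67% in the other Tut4/7 CTL libraries and 3.59% to 3.87% in Tut4/7 cKO, so values are also given without it.

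Abundance is given as CPM, counts scaled to library size with TMM. Levels spanned 3 tiers, with miR-1198-5p and miR-1981-5p at 3265 CPM or more in every library, miR-1983 and miR-1964-3p between 98.1 and 1938 CPM, and the remaining 5 between 10.1 and 212 CPM. All 9 reached 10 reads in 4 or more libraries, whereas 29 of the other 433 miRNAs numbered 700 or above did, so the choice of names favored miRNAs that were well detected. In edgeR's quasi-likelihood test over 205 miRNAs, 1 passed an adjusted P of 0.05 (0.488% of those tested). miR-704 is not counted here, because its difference was known when the list was drawn up and because it reached the minimum of reads in Tut4/7 CTL libraries only. Of the other 8, 0 passed in edgeR, and 4 had an unadjusted P below 0.05 (miR-1934-3p, miR-1947-5p, miR-1981-5p and miR-1983). The median log2 fold change (Tut4/7 cKO over Tut4/7 CTL) was −0.11 over the 29 others and −0.01 over all 205. No median is given for the 9, because they include miR-704. With DESeq2 11 of 205 passed (5.37%), and in edgeR without a filter on low counts 18 of 817 did (2.2%). Of those 8, both sets held miR-1983 and miR-1981-5p.

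**Figure D1:**
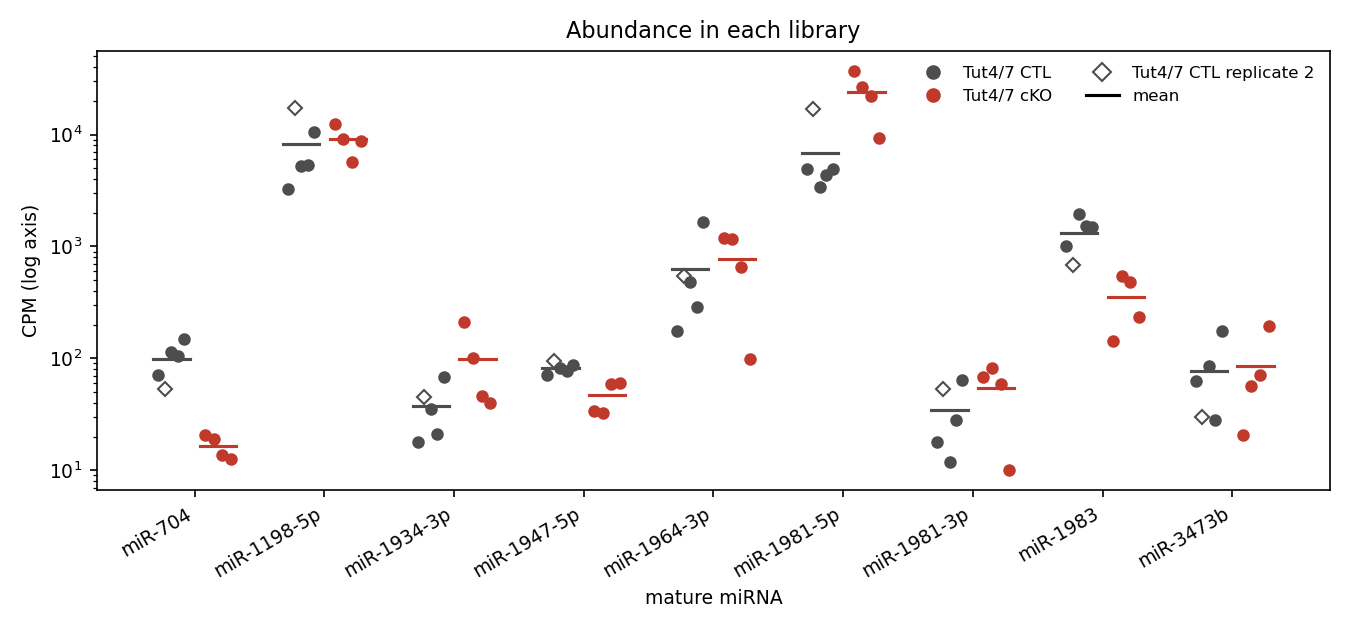
CPM of the 9 miRNAs on a log axis, 1 symbol per library with Tut4/7 CTL in grey and Tut4/7 cKO in red, the open diamond for Tut4/7 CTL replicate 2 and a bar for the mean. The groups are apart for miR-704, miR-1947-5p and miR-1983, all lower in Tut4/7 cKO, and miR-1981-5p stands highest in Tut4/7 cKO with the diamond among its Tut4/7 cKO values.

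miR-704 had the lowest log2 fold change in abundance of the 9. Its genotype values are a description, with no test. Tut4/7 CTL replicates 1 to 5 held 71.5, 52.7, 115, 105 and 150 CPM, and Tut4/7 cKO replicates 1 to 4 held 20.5, 19.0, 13.7 and 12.6 CPM. Every Tut4/7 cKO value was below every Tut4/7 CTL value, with means of 98.8 ± 38.1 (SD, n = 5) and 16.4 ± 3.89 CPM (SD, n = 4). Fitted log2 fold change was −2.60 ± 0.43 (SE), or −2.85 without Tut4/7 CTL replicate 2. These are small counts, from 14 to 40 reads per Tut4/7 CTL library and 3 to 7 per Tut4/7 cKO library.

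The difference in miR-704 lay in the reads that end in an added T. A read is called uridylated here when it has 1, 2 or 3 Ts beyond the last annotated base. In Tut4/7 CTL replicates 1 to 5, 12 of 16, 3 of 14, 35 of 39, 26 of 30 and 33 of 40 reads were uridylated, so this miRNA was mostly seen with a T after its final G. Replicate 2, at 21.4%, was far below the other 4, which ran from 75.0% to 89.7%. In Tut4/7 cKO, 1 of 21 reads was uridylated, in replicate 3. Reads without an added T held 22.3 ± 12.1 CPM in Tut4/7 CTL (SD, n = 5) and 15.9 ± 4.54 CPM in Tut4/7 cKO (SD, n = 4), and these overlapped. Of the 82.3 CPM between the group means, 75.9 CPM (92.2%) were uridylated reads and 6.39 CPM were other reads. When only the reads without an added T were fitted, a comparison added after the values were seen, the log2 fold change was −0.64.

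**Figure D2:**
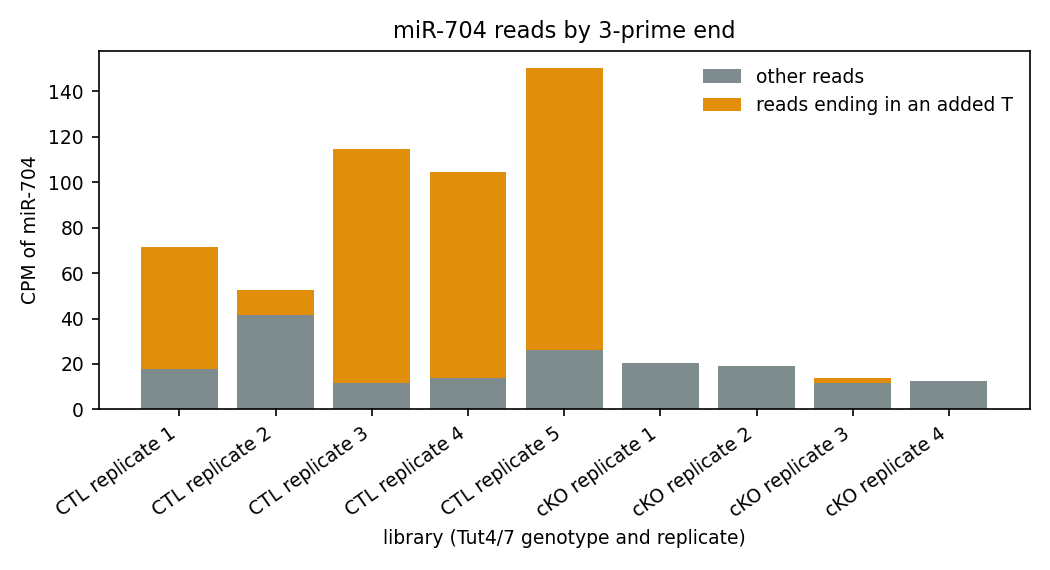
CPM of miR-704 in each library, with reads ending in an added T (orange) stacked on all other reads (grey). The orange part makes up most of 4 Tut4/7 CTL bars, is 11.3 CPM in Tut4/7 CTL replicate 2 and is 2.28 CPM or 0 in Tut4/7 cKO, while the grey part lies between 11.4 and 41.4 CPM in all libraries.

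The miRNAs whose log2 CPM followed that of miR-704 most closely over the 9 libraries were miR-1983 (Pearson r 0.865), miR-7a-5p (0.864) and miR-185-3p (0.839), chosen as the 3 highest of the abundance fit. The 9 points share their libraries and genotype, and r is a description. miR-7a-5p stood at 2909 ± 688 CPM (SD, n = 5) and 1460 ± 263 (SD, n = 4), and miR-185-3p stood at 134 ± 22.9 and 72.3 ± 8.01, with adjusted P values of 0.155 and 0.163 in edgeR's quasi-likelihood test, above the threshold.

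miR-1981-5p, from the Mtarc2 intron, was the most abundant of the 9 in Tut4/7 cKO. Its level was 4958, 16893, 3420, 4326 and 4953 CPM in Tut4/7 CTL replicates 1 to 5 and 37195, 26632, 22301 and 9232 CPM in Tut4/7 cKO replicates 1 to 4. The groups overlapped through Tut4/7 CTL replicate 2 alone, the library that also had a low share of uridylated reads. The log2 fold change was 1.79 ± 0.53 (SE) with an adjusted P of 0.155 in edgeR's quasi-likelihood test, so it did not pass. Without Tut4/7 CTL replicate 2 it was 2.35 with an adjusted P of 0.0244, and with DESeq2 on all libraries 1.86 with an adjusted P of 0.0262. The call therefore depended on the tool and on that library, and its adjusted P values ran from 0.00339 to 0.383 over the settings tried.

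The 3p arm of miR-1981 was rare throughout, with 4, 14, 4, 8 and 17 reads in Tut4/7 CTL replicates 1 to 5 and 10, 30, 26 and 4 in Tut4/7 cKO. It held 34.8 ± 22.5 CPM (SD, n = 5) and 54.8 ± 31.2 CPM (SD, n = 4), which overlapped (log2 fold change 0.63 ± 0.64 SE, adjusted P 0.698 in edgeR's quasi-likelihood test). As a share of both arms, 3p reads were 0.359%, 0.311%, 0.343%, 0.641% and 1.27% in Tut4/7 CTL replicates 1 to 5, and 0.183%, 0.305%, 0.265% and 0.109% in Tut4/7 cKO replicates 1 to 4. Every Tut4/7 cKO share was below every Tut4/7 CTL share, the nearest being replicate 2 of each. The means were 0.585% ± 0.407 (SD, n = 5) and 0.216% ± 0.0875 (SD, n = 4), with an exact permutation P of 0.0159 on both sides, the smallest that 5 against 4 allows. The difference of 0.370 percentage points fell to 0.198 without Tut4/7 CTL replicate 5. It was 0.186 (exact permutation P = 0.127) when uridylated reads of both arms were left out. In every library at least 77.5 reads of 5p stood against 1 of 3p.

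miR-1983, which overlaps a tRNA gene, stood lower in every Tut4/7 cKO library. Tut4/7 CTL replicates 1 to 5 held 1000.5, 682, 1938, 1521 and 1477 CPM, and Tut4/7 cKO replicates 1 to 4 held 143, 543, 477 and 236 CPM. The lowest Tut4/7 CTL value was that of replicate 2. The log2 fold change was −1.91 ± 0.48 (SE) with an adjusted P of 0.0873 in edgeR's quasi-likelihood test, and 0.00163 with DESeq2, so the call again depended on the tool. The difference was not limited to uridylated reads, since the other reads held 1139 ± 380 CPM (SD, n = 5) and 326 ± 183 CPM (SD, n = 4) without overlap. A lower level in every Tut4/7 cKO library than in every Tut4/7 CTL library was found in 7 of 205 miRNAs (3.41%). These included miR-1947-5p and miR-1983. miR-704 was also among the 7 but is not counted, because its difference was known when the list was drawn up. The opposite, a higher level in every Tut4/7 cKO library, was also found in 7 of 205 (3.41%), none of them among the 9.

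miR-1947-5p, from the Lmln intron, was at 71.5, 94.2, 82.3, 76.8 and 86.4 CPM in Tut4/7 CTL replicates 1 to 5 and at 34.1, 32.6, 59.4 and 60.4 CPM in Tut4/7 cKO replicates 1 to 4. The groups did not overlap, but counts were 5 to 28 reads per library. Its log2 fold change was −0.79 ± 0.33 (SE), with an adjusted P of 0.30 in edgeR's quasi-likelihood test.

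The abundance of the other 4 overlapped between genotypes. Their log2 fold changes were 0.12 ± 0.47 (SE) for miR-1198-5p, 0.30 ± 0.75 for miR-1964-3p, 1.35 ± 0.58 for miR-1934-3p and 0.21 ± 0.67 for miR-3473b, and their adjusted P values lay between 0.30 and 0.925 in edgeR's quasi-likelihood test. miR-1198-5p, on average the most abundant of the 9 in Tut4/7 CTL, held 8294 ± 5640 CPM (SD, n = 5) and 9046 ± 2829 CPM (SD, n = 4), with its highest value, 17157 CPM, in Tut4/7 CTL replicate 2. miR-1964-3p ran from 174 to 1669 CPM in Tut4/7 CTL and from 98.1 to 1188 CPM in Tut4/7 cKO, so its libraries differed far more within a genotype than the group means of 632 and 779 CPM did. miR-1934-3p held 37.4 ± 20.2 CPM (SD, n = 5) and 99.5 ± 79.6 CPM (SD, n = 4), its highest value being 212 CPM in Tut4/7 cKO replicate 1. miR-3473b held 76.5 ± 60.8 and 86.1 ± 76.4 CPM, with reads that cannot be assigned to 1 locus.

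Uridylation differed far more than abundance. In edgeR's quasi-likelihood test of uridylated against other reads, 85 of 151 miRNAs tested (56.3%) were lower in Tut4/7 cKO. Among the 9, miR-1198-5p, miR-1964-3p and miR-1981-5p passed with uridylated reads in at least 3 libraries of each genotype. miR-704, miR-1934-3p, miR-1947-5p and miR-1981-3p met the requirement of a uridylated read in 3 libraries through Tut4/7 CTL alone. They had such reads in 1, 1, 0 and 0 Tut4/7 cKO libraries and are therefore described without a test. Of the other miRNAs numbered 700 or above, 9 of the 15 tested were lower. The median log2 change in the odds was −2.98 over those 15 and −2.72 over all 151. No median is given for the 9, because miR-704, miR-1934-3p, miR-1947-5p and miR-1981-3p entered through Tut4/7 CTL alone. Without Tut4/7 CTL replicate 2, 100 of 151 were lower (66.2%), and miR-1983 was then among them.

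**Figure D3:**
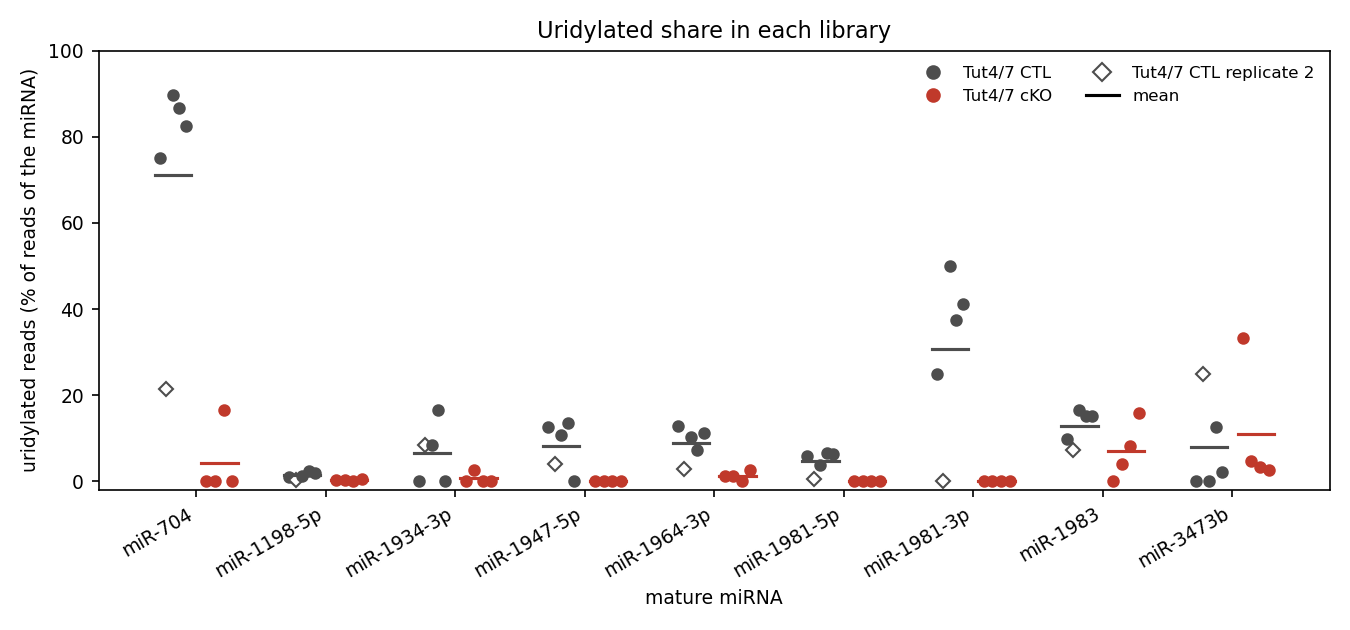
Uridylated reads as a percentage of the reads of each miRNA, 1 symbol per library with Tut4/7 CTL in grey and Tut4/7 cKO in red, the open diamond for Tut4/7 CTL replicate 2 and a bar for the mean. miR-704 spans 75.0% to 89.7% in 4 Tut4/7 CTL libraries, miR-1983 overlaps between genotypes, and the 33.3% of miR-3473b in Tut4/7 cKO is 1 of 3 reads.

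miR-1981-5p gave the best-counted loss. Its uridylated share was 5.95%, 0.424%, 3.78%, 6.53% and 6.30% in Tut4/7 CTL replicates 1 to 5, each from at least 1110 reads, and 0.0734%, 0.0714%, 0.113% and 0.0817% in Tut4/7 cKO replicates 1 to 4. Every Tut4/7 cKO value was below the low replicate 2 of Tut4/7 CTL. The log2 change in the odds was −5.49 ± 0.77 (SE), with an adjusted P of 3.29e-05 in edgeR's quasi-likelihood test, and −6.07 without Tut4/7 CTL replicate 2. Summed over libraries, 293 of 9316 Tut4/7 CTL reads and 25 of 28689 Tut4/7 cKO reads were uridylated, a ratio of shares of 36.1 (95% interval 24.0 to 56.7). Tut4/7 CTL replicate 2 gave 4485 of those 9316 reads, and without it the ratio was 65.1 (95% interval 43.2 to 102). Reads lack molecular identifiers, so this and the other pooled intervals cover counting error only.

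The 3p arm of the same intron was uridylated more often, in 1 of 4, 0 of 14, 2 of 4, 3 of 8 and 7 of 17 reads of Tut4/7 CTL replicates 1 to 5. None of its 70 Tut4/7 cKO reads was uridylated, which allows a share of up to 4.29%. That limit is 3 counts over the group. The pooled Tut4/7 CTL share of 27.7%, from 13 of 47 reads and taken as measured, was 6.45-fold the limit. The replicate without a uridylated read was again Tut4/7 CTL replicate 2.

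miR-1964-3p was uridylated in 12.8%, 2.76%, 10.3%, 7.32% and 11.3% of reads in Tut4/7 CTL replicates 1 to 5 and in 1.15%, 1.16%, 0% and 2.56% in Tut4/7 cKO replicates 1 to 4. The groups did not overlap, although the lowest Tut4/7 CTL value and the highest Tut4/7 cKO value, the latter from 1 of 39 reads, were close. The log2 change in the odds was −3.30 ± 0.74 (SE), with an adjusted P of 0.00122 in edgeR's quasi-likelihood test. A share that was lower in every Tut4/7 cKO library than in every Tut4/7 CTL library was found in 49 of 151 miRNAs (32.5%). These included miR-1964-3p and miR-1981-5p. miR-704 was also among the 49 but is not counted, because it entered through Tut4/7 CTL alone.

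miR-1198-5p, where a genomic T follows, was uridylated in 1.09%, 0.395%, 1.13%, 2.30% and 1.93% of reads in Tut4/7 CTL replicates 1 to 5 and in 0.381%, 0.295%, 0.162% and 0.486% in Tut4/7 cKO replicates 1 to 4. Only Tut4/7 CTL replicate 2 lay within the Tut4/7 cKO values. The log2 change in the odds was −1.91 ± 0.60 (SE), with an adjusted P of 0.0130 in edgeR's quasi-likelihood test, or 0.0589 without Tut4/7 cKO replicate 3. In a quasi-binomial model the adjusted P was 0.0578.

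miR-1947-5p had 2 of 16, 1 of 25, 3 of 28, 3 of 22 and 0 of 23 uridylated reads in Tut4/7 CTL replicates 1 to 5 and 0 of 67 in Tut4/7 cKO. The latter allows a share of up to 4.48%, from 3 counts over the group. The pooled Tut4/7 CTL share of 7.89%, from 9 of 114 reads and taken as measured, was 1.76-fold that limit. Tut4/7 CTL replicate 5 held none either, so the groups touched at 0.

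Of the remaining 3 miRNAs, miR-1983 and miR-3473b did not pass, and miR-1934-3p is described without a test. miR-1983, also followed by a genomic T, was uridylated in 9.82%, 7.18%, 16.5%, 15.1% and 15.3% of reads in Tut4/7 CTL replicates 1 to 5 and in 0%, 4.0%, 8.13% and 16.0% in Tut4/7 cKO replicates 1 to 4. These values overlapped, and Tut4/7 cKO replicate 4, with 15 of 94 reads, was as high as Tut4/7 CTL. The log2 change in the odds was −0.85 ± 0.59 (SE), with an adjusted P of 0.237 in edgeR's quasi-likelihood test, or 0.0269 without Tut4/7 CTL replicate 2. miR-1934-3p had 3 uridylated reads among 52 of Tut4/7 CTL and 1 among 104 of Tut4/7 cKO, a ratio of shares of 6.0 with a 95% interval from 0.482 to 315, so a difference was not detectable at this depth. miR-3473b had shares of 3.77% (4 reads) and 3.76% (5 reads), with an interval of their ratio from 0.199 to 4.66, on a sequence of which many genomic copies are followed by a T.

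The 5 miRNAs with under 100 reads in every library were pooled. Leaving out miR-3473b for its shared reads, miR-704, miR-1934-3p, miR-1947-5p and miR-1981-3p together were uridylated in 37.5%, 7.69%, 49.4%, 50% and 40.8% of 40 to 98 reads in Tut4/7 CTL replicates 1 to 5, and in 0%, 1.16%, 1.28% and 0% of 49 to 86 reads in Tut4/7 cKO replicates 1 to 4. Of the 134 uridylated Tut4/7 CTL reads in this pool, 109 were miR-704, so the pool mostly repeats it. Including miR-3473b, 138 of 458 Tut4/7 CTL reads and 7 of 395 Tut4/7 cKO reads were uridylated.

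Reads with 2 or 3 added Ts, which no genomic T explains at the loci of the 8 miRNAs other than miR-3473b, were absent from all 4 Tut4/7 cKO libraries for all 9 miRNAs. Tut4/7 CTL replicates 1 to 5 held 8, 6, 39, 26 and 32 such reads. These were 0.464% of 23924 reads of the 9, against 0 of 41731 in Tut4/7 cKO, which allows a share of up to 0.00719%. Since the 9 make up different shares of the pool in each genotype, no ratio is given for the pool, and the bounds by miRNA follow. For the other miRNAs of the table together such reads made up 1.41% and 0.330%, with reads of this kind in every Tut4/7 cKO library. The make-up of that pool can differ between genotypes too, so it is given without a ratio. How many of its reads 2 genomic Ts could give was not tested. Nor was it counted how many other single miRNAs had none in Tut4/7 cKO, so the absence is not shown to be particular to the 9.

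By miRNA, the reads with 2 or 3 added Ts in Tut4/7 CTL were 65 of 1893 for miR-1983 (3.43%), 23 of 9316 for miR-1981-5p, 13 of 11382 for miR-1198-5p, 5 of 875 for miR-1964-3p, 3 of 139 for miR-704 and 1 each for miR-1947-5p and miR-1981-3p. miR-1983 thus supplied 65 of the 111. The highest bound was that of miR-1981-5p, whose Tut4/7 CTL share was 23.6-fold the share that 3 counts over the Tut4/7 cKO group would give. It was 37.6-fold without Tut4/7 CTL replicate 2. These bounds take the Tut4/7 CTL share as measured, without its counting error. For miR-1983, 0 of 524 reads in Tut4/7 cKO allows up to 0.573%, and its Tut4/7 CTL share was 6.0-fold that limit. Reads of miR-1983 with 1 added T were 10.8% and 7.63%, a ratio of 1.42 (95% interval 1.01 to 2.04). For miR-1198-5p the ratio was 3.16 (95% interval 2.18 to 4.67) for 1 added T and the bound for 2 or 3 was 4.26, inside that interval, so no difference between them was shown. The bound was 7.10 without Tut4/7 CTL replicate 2, where the ratio for 1 added T was 4.49 (95% interval 3.07 to 6.69). Since the bound leaves out the counting error of the Tut4/7 CTL share, no difference was shown there either. For miR-704, miR-1947-5p and miR-1981-3p the reads in Tut4/7 cKO were too few to set a bound above 1.

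Of the 118 uridylated reads of the 9 left in Tut4/7 cKO, 38 were miR-1198-5p and 40 were miR-1983, both followed by a genomic T. The 6 miRNAs with 1 genomic copy and no T after it were uridylated in 7.23%, 0.596%, 7.23%, 8.65% and 9.30% of reads in Tut4/7 CTL replicates 1 to 5 and in 0.106%, 0.126%, 0.118% and 0.106% in Tut4/7 cKO replicates 1 to 4. miR-1981-5p supplies most of their reads. The Tut4/7 cKO values lay close together, and the low Tut4/7 CTL replicate 2 was still above them.

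The usual 3′ end differed from miRNA to miRNA. Reads of miR-1198-5p ended at the annotated base in 90.3% ± 0.897 in Tut4/7 CTL (SD, n = 5) and 91.0% ± 3.24 in Tut4/7 cKO (SD, n = 4). Those of miR-1964-3p did so in 77.5% ± 3.53 and 82.0% ± 5.27. miR-1981-5p had no single end, with 38.9% ± 5.70 of reads 1 base short and 38.2% ± 5.90 at the annotated base in Tut4/7 CTL, and 36.0% ± 6.11 and 42.9% ± 15.4 in Tut4/7 cKO. miR-1947-5p mostly ended 1 base short, in 65.0% ± 12.6 and 66.4% ± 14.0 of reads, so that its usual form in these cells lacks the last annotated base. miR-3473b often ended 3 or 4 bases short. The ends of miR-704 and miR-1981-3p differed between genotypes through the added T. miR-704 had 69.6% ± 27.4 of reads 1 base past the annotated end and 25.1% ± 26.2 at it in Tut4/7 CTL (SD, n = 5), and 4.17% ± 8.33 and 69.8% ± 11.1 in Tut4/7 cKO (SD, n = 4). miR-1981-3p had 28.2% ± 19.1 of reads 1 base past the end in Tut4/7 CTL and 0% in Tut4/7 cKO.

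**Figure D4:**
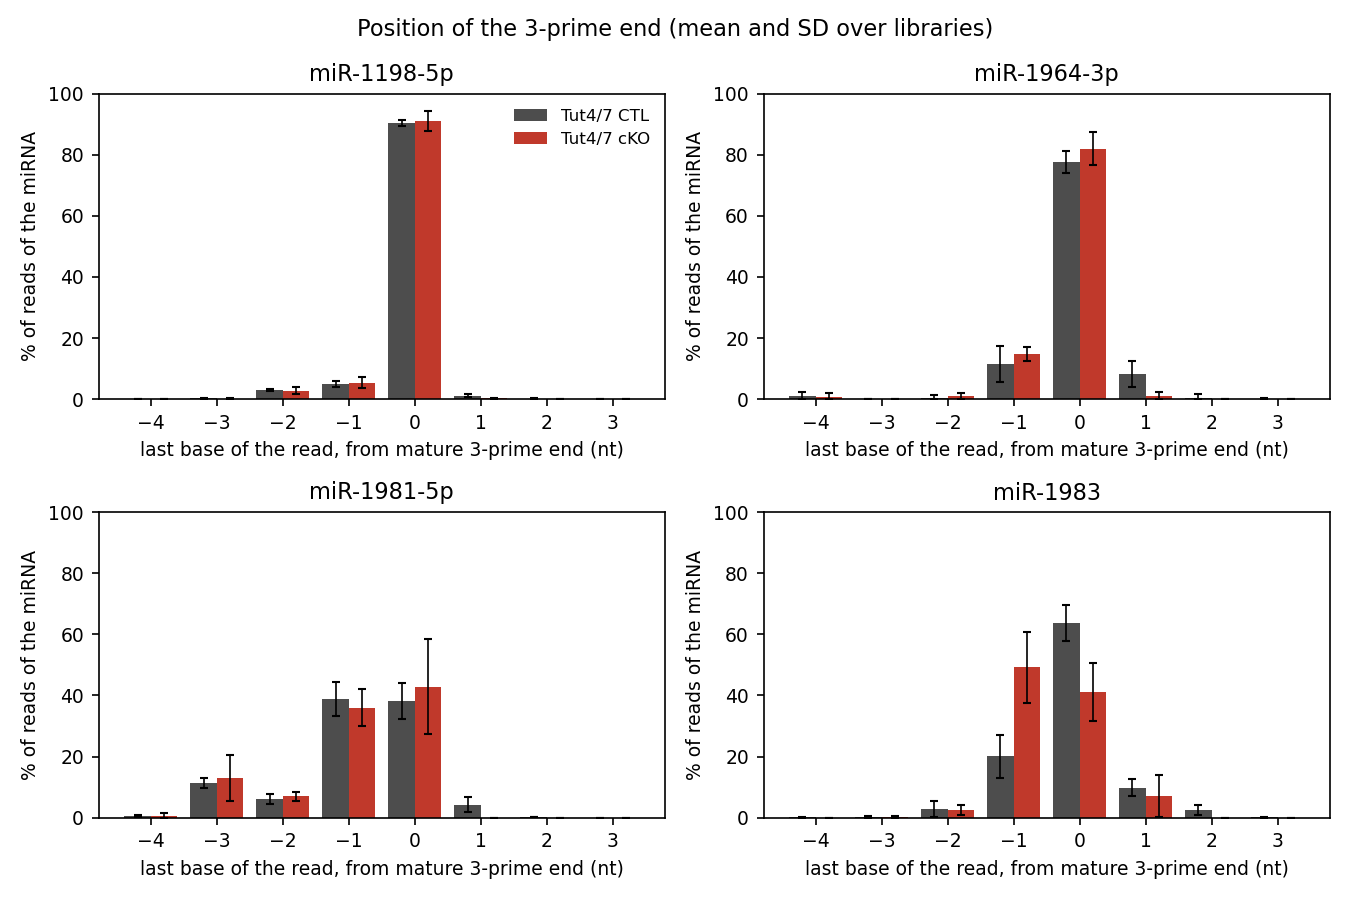
Share of reads of 4 miRNAs by the position of their last base, in nt from the annotated 3′ end (0), as mean with SD over 5 Tut4/7 CTL (grey) and 4 Tut4/7 cKO (red) libraries. Error bars are cut at 0, positions 1 to 3 are added Ts, and miR-1983 has 20.1% of Tut4/7 CTL and 49.2% of Tut4/7 cKO reads at position −1.

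Reads that end at least 1 base before the annotated end, called truncated, were tested in the same way in 190 miRNAs. In edgeR's quasi-likelihood test 9 were higher in Tut4/7 cKO (4.74%), and of the 9 miRNAs described here miR-1983 passed. Its truncated share was 25.0%, 39.2%, 17.5%, 19.5% and 16.0% in Tut4/7 CTL replicates 1 to 5 and 71.4%, 45.0%, 47.4% and 43.6% in Tut4/7 cKO replicates 1 to 4. The groups did not overlap, and Tut4/7 CTL replicate 2 was closest to Tut4/7 cKO. The log2 change in the odds was 1.77 ± 0.43 (SE) with an adjusted P of 0.0408 in edgeR's quasi-likelihood test. The call was lost, with adjusted P values of 0.0617 to 0.153, when any library other than Tut4/7 CTL replicate 2 was left out, and it was 0.00677 without that one. The change was at a single base: reads 1 base short made up 20.1% ± 7.01 in Tut4/7 CTL (SD, n = 5) and 49.2% ± 11.7 in Tut4/7 cKO (SD, n = 4), and reads at the annotated end 63.8% ± 5.86 and 41.1% ± 9.43. Since miR-1983 ends in U, a U added to the shorter form reads as the annotated end, and whether this took part was not tested.

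For the remaining miRNAs the truncated share did not pass. The median log2 change was 0.28 over all 190. None is given for the 9, because miR-704 reached the minimum of reads in Tut4/7 CTL libraries only. miR-704 had the highest log2 change, 3.31, with truncated shares of 3.85% ± 2.89 (SD, n = 5) and 26.1% ± 12.6 (SD, n = 4) that did not overlap. These are shares of all its reads, most of which carried an added T in Tut4/7 CTL. Summed over libraries they rest on 4 of 139 and 5 of 21 reads. On non-uridylated reads only, the log2 change of miR-704 was 1.07. The truncated share of miR-1981-5p was 57.2% ± 6.74 (SD, n = 5) and 57.0% ± 15.4 (SD, n = 4), with a log2 change of 0.01 ± 0.41 (SE). Start positions were nearly fixed in the abundant miRNAs. At least 99.7% of miR-1198-5p reads and of miR-1981-5p reads began at the annotated first base in every library. miR-1983 was less exact, with 72.3% to 85.7% of its reads starting there. miR-3473b had 0% in 3 libraries and 72.4% or more in the other 6, and miR-1981-3p had 62.5% in Tut4/7 CTL replicate 4, from 8 reads.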

How the data were processed

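The sRNA-seq libraries, 5 of Tut4/7 CTL and 4 of Tut4/7 cKO cells, were made from the 15 to 40 nt RNA fraction with 16 cycles of PCR. With the versions from the submitters' processing notes, the authors trimmed adapters with cutadapt 5.0 and mapped reads without mismatches with Bowtie 1.3.1 to mature miRNAs with 3 extra Ts at the end. They deposited raw counts for each miRNA and for each read sequence. Reads that ended past the mature 3′ end were marked as uridylated, which was checked against the coordinates with 0 differences. Other non-templated bases and longer tails do not map in this scheme, and reads ran from 16 to 28 nt.

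edgeR 4.0.16 (R 4.3.3; TMM, glmQLFit, glmQLFTest) was used for abundance on the 205 miRNAs that reached 10 reads in 4 or more of the 9 libraries. Uridylated or truncated reads were set against the remaining reads in edgeR, in a model with library terms and a genotype effect on the read class. A miRNA entered with 10 reads in 5 or more libraries and a read of the class in 3 or more of the 9. P values were adjusted by Benjamini-Hochberg over each whole table. Where Tut4/7 cKO held no uridylated read, the fitted change depends on the prior count, and a bound from 3 counts is given. This bound takes the Tut4/7 CTL share as measured, without its counting error. The miR-1981 arm share was compared with an exact permutation test on both sides in SciPy 1.17.1. Pooled ratios have exact 95% intervals. The 9 miRNAs and the lists were chosen with earlier results of these data known, and all 9 are named.

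On simulated counts, the abundance test recovered 49 of 50 changes (log2 size 2) among 205 miRNAs with 3 false calls, the uridylation test 41 of 50 (log2 size −3) among 151 with 3 false calls, and the truncation test 45 of 50 (log2 size −3) among 190 with 2 false calls. The spread between simulated libraries was a fixed setting, not one estimated from these libraries, so these counts do not give the power here. Alternatives were DESeq2 1.42.0 and its size factors, higher or no read minimums, a quasi-binomial model, uridylated reads alone, a replicate block and leaving out each library. Whether replicate numbers pair the libraries is not stated in the sources used here, so the block was kept as an alternative only. Mature sequences of 702 of the 817 miRNAs were matched by name in the RefSeq table.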

Additional observations from a re-analysis of the deposited data

Results flagged for a closer look

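In 56 sets of 4 or 5 libraries of 1 genotype (CPM, uridylated share and truncated share of each miRNA, and the miR-1981 arm share), a library stood apart from the rest by Dixon's ratio in 8. The limits flag about 1 in 20 sets of normally spread values. That rate does not hold for shares of a few reads or where the other libraries are all 0, so the 8 are a description. Tut4/7 CTL replicate 2 was among them for the uridylated share of miR-704, at 21.4% against 75.0% to 89.7% in the other 4, and for the abundance of miR-1981-5p, at 16893 CPM against 3420 to 4958 CPM. Tut4/7 CTL replicate 5 held 1669 CPM of miR-1964-3p, against 174 to 546 CPM in the other 4. Tut4/7 cKO replicate 1 had 71.4% truncated reads of miR-1983 against 43.6% to 47.4% in the other 3. The same library had 33.3% uridylated and 0% truncated reads of miR-3473b against 2.56% to 4.76% and 76.2% to 91.0%, from 3 reads in all. In Tut4/7 cKO, replicate 3 held the uridylated miR-704 read (16.7% of 6 reads) and replicate 2 the uridylated miR-1934-3p read (2.70% of 37 reads), where the other 3 libraries had 0.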

How the results depend on the processing

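Counting all 9 miRNAs, those described without a test included, the number past the abundance threshold was 1, and it was 3 with DESeq2, 3 without a filter on low counts, 0 with at least 10 reads in every library (4 tested), 0 with a replicate block, 0 on non-uridylated reads only (added after the data were seen) and 0 to 2 when 1 library was left out. Over all miRNAs tested, these numbers were 1, 11, 18, 0, 0, 0 and 0 to 2 in the same order. The 1 was miR-704, whose difference was known when the list was drawn up, so its calls are no support for a difference. Both sets of 3 held miR-704 beside miR-1981-5p and miR-1983. For uridylation it was 6, 3 of the 4 tested with at least 50 reads in 5 libraries, 5 in the quasi-binomial model, 5 of 7 without miRNAs followed by a genomic T, and 4 to 7 when 1 library was left out (4 without Tut4/7 cKO replicate 3). Over all miRNAs tested it was 85, 69, 91, 56 and 61 to 100 in the same order. The 6 include miR-704, miR-1947-5p and miR-1981-3p, which entered through Tut4/7 CTL alone. For truncation it was 1, and 0 on non-uridylated reads only, 0 for reads at least 2 bases short, 0 with a replicate block, 0 on replicates 1 to 4 without the block (added after the data were seen) and 0 to 1 when 1 library was left out. Over all miRNAs tested it was 9, 2, 0, 3, 2 and 2 to 11 in the same order. The miR-1981 arm difference of 0.370 percentage points was 0.186 on non-uridylated reads only and 0.198 in the replicate block, where 4 pairs cannot give an exact permutation P below 0.125. The causes were not tested.

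Some log2 changes turned sign, none past the threshold once turned. Without the filter the abundance of miR-1198-5p was −0.048, and it ran from −0.10 to 0.50 with 1 library left out. That of miR-3473b ran from −0.64 to 0.64. The uridylation of miR-3473b was 0.35 on uridylated reads alone and −0.50 to 0.82 with 1 library left out. Truncation of miR-1983, called at 1.77, was −0.31 for reads at least 2 bases short.

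The deviations of same-numbered libraries from their group means had correlations of −0.11, −0.20, 0.43 and 0.08 over 205 miRNAs. These cannot decide whether the numbers pair the libraries. With the replicate block 67 of 151 miRNAs were called for uridylation, 6 of them among the 9, against 72 in the same libraries without it. Depth limits the rare miRNAs: in single libraries the 95% Wilson interval of the uridylated share was 11.0 to 53.3 percentage points wide for miR-1934-3p.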

Other observations

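Another hairpin with both arms in the table, miR-1934, was looked at after the data were seen and was not tested. Its 5p and 3p arms had 9 and 4, 9 and 12, 21 and 12, 14 and 6, and 41 and 18 reads in Tut4/7 CTL replicates 1 to 5. In Tut4/7 cKO replicates 1 to 4 they had 8 and 31, 11 and 37, 12 and 20, and 7 and 16 reads. The 3p share was thus 37.0% ± 11.6 (SD, n = 5) and 72.2% ± 7.70 (SD, n = 4), with 57.1% the highest in Tut4/7 CTL, in replicate 2, and 62.5% the lowest in Tut4/7 cKO. The arm read more often therefore differed between the genotypes, in all Tut4/7 CTL libraries except replicate 2.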
